A study of Mus musculus with 6 samples.

Results

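Gdf15 and Fgf21 encode hormones that stressed tissues release, and Klb and Fgfr1 encode the receptor complex through which FGF21 acts on fat. These 4 genes were taken by symbol from the 23282 rows of counts measured in brown adipose tissue (BAT) of wild-type and Letmd1 KO mice. They were chosen by measured values of these same mice, so their levels are given as a description with no test. All 4 had counts, and 3 of them (Gdf15, Klb and Fgfr1) were among the 12995 genes that passed the filter on low counts, while Fgf21 did not. In Letmd1 KO BAT, Gdf15 went from almost no counts to 228 ± 28.4 CPM (counts scaled per 1000000 library counts, SD, n = 3) and Fgf21 from near 0 to 1.77 ± 0.886 CPM (SD, n = 3). The levels of Klb and Fgfr1 overlapped between the genotypes.

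RNA was taken from whole BAT of 3 wild-type and 3 Letmd1 KO mice, all male, 5 weeks of age and of strain C57BL/6N. LETMD1 is a protein of the mitochondrial matrix. The Letmd1 KO mice carry a null allele on both copies in every tissue, a knockout-first allele from a single ES cell clone in which an intronic lacZ and neomycin resistance cassette disrupts the gene, so the values do not separate what the loss does within BAT from what it does in the rest of the body. The wild-type mice carry neither the allele nor the cassette.

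The libraries held between 6669577 and 14574273 counts, and the limit that a count of 0 allows (3 counts, counting error only) lay between 0.176 and 0.397 CPM. Letmd1 counts were between 5266 and 6490 in wild-type BAT and at 0, 0 and 1 after knockout, so the genotype labels held for all 6. TMM, which scales libraries on the bulk of their genes, gave factors between 0.852 and 0.886 for wild-type and between 1.13 and 1.17 for KO libraries. Scaling by library size alone moved the median gene from a log2 fold change of 0.03 to 0.45. The tissue was checked against markers of fat: summed adipocyte markers, led by Fabp4 and Lpl, were at 41074 ± 2442 CPM in wild-type and 21611 ± 3011 CPM in Letmd1 KO BAT (SD, n = 3 each), and summed brown adipocyte markers, led by Ucp1 and Cidea, at 15674 ± 767 and 3151 ± 783 CPM. In bulk tissue, fewer cells of a type and less RNA per cell cannot be told apart.

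GDF15 is a distant member of the TGF-beta superfamily that circulates at low levels in health and rises with mitochondrial and other cell stress. It signals through GFRAL, a receptor found in the hindbrain, with RET as the signalling partner, and lowers food intake. FGF21 is an endocrine member of the fibroblast growth factor family, made mainly by liver and, under stress or cold, also by fat and muscle. It binds beta-klotho (KLB) together with an FGF receptor, in fat mostly FGFR1, and signals through FRS2 and the ERK kinases. Both hormone genes are known targets of ATF4, the transcription factor of the integrated stress response, and Fgf21 also of PPAR-alpha and PPAR-gamma.

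In the GENCODE annotation of GRCm38, Gdf15 lies on the minus strand at chr8:70629393-70632456 with 2 annotated transcripts, and Fgf21 on the minus strand at chr7:45613886-45615490 with 1. Klb lies on the plus strand at chr5:65348314-65384007 and Fgfr1 on the plus strand at chr8:25513654-25575718. Fgfr1 overlaps the antisense gene Gm16159, which had between 0 and 13 counts per mouse, and whether strand was used in counting is not given in the sources used here, so reads of this pair cannot be told apart. No annotated gene overlaps Gdf15, Fgf21 or Klb.

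The bases upstream of the hormone genes are shown because stress-induced factors are known to act there. RefSeq windows on GRCm38.p6 were found for 3 of the 4 genes (Gdf15, Fgf21 and Klb). Each sequence below is on the gene's own strand, 5′ to 3′, and capitals mark a motif. The first is 250 bases before the Fgf21 start at chr7:45615491-45615740 on the minus strand, with a C/EBP-ATF response element (CARE) read on the opposite strand and an E-box. The second is 250 bases before the first Gdf15 start at chr8:70632457-70632706 on the minus strand, which held none of the motifs searched. The third is a stretch of 30 bases at chr8:70632161-70632190 on the minus strand, before the second Gdf15 start, with an E-box.
Fgf21 upstream: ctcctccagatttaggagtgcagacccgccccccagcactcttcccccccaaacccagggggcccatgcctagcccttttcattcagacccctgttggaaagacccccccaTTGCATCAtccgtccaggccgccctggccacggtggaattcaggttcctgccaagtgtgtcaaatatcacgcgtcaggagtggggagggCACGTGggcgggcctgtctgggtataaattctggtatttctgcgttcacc
Gdf15 first start: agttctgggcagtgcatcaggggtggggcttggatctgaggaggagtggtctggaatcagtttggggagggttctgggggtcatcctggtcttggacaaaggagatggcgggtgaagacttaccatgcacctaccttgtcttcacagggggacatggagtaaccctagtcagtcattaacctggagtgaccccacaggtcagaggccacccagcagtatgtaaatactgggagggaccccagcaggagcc
Gdf15 second start: cacagggcagggCACGTGtgagcatccagt

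Of these motifs, the CARE (TGATGNAA), which ATF4 binds with C/EBP proteins, began 139 bases before the Fgf21 start and was present in 3.97% of all 32851 windows of 300 bases, counting both strands. The E-box (CACGTG), a site for basic helix-loop-helix factors, began 50 bases before the Fgf21 start and 83 bases before the second Gdf15 start, and 7.15% of all windows held it. The cyclic AMP response element (TGACGTCA), present in 1.79% of all windows, and the PPAR response element, a repeat of AGGTCA with 1 base between, present in 0.0396%, were in none of the windows of these 3 genes, nor did the Klb window hold any of the motifs. A match to these letters is a description of the sequence and not of binding.

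Wild-type BAT held 4, 1 and 2 Gdf15 counts, and Letmd1 KO BAT held 1895, 1970 and 3663. Its levels were 0.431, 0.106 and 0.261 CPM in wild-type BAT and 208, 261 and 215 CPM in Letmd1 KO BAT. All 3 KO mice were high and alike, within 1.25 times of each other, and every wild-type mouse was at the edge of detection. The summed counts, 7 against 7528, gave a ratio of 843 with a counting interval of 95% from 408.8 to 2097. The fitted log2 fold change was 9.68, the 6th from the top among the 12995 genes tested. Its standard error of 0.25 was worked back from the test statistic and is smaller than the counting interval on 7 wild-type counts implies. DESeq2 gave 9.73 with a standard error of 0.57. Among all rows, the gene moved from percentile 39.4 of level in wild-type BAT to percentile 97.2 in Letmd1 KO BAT. Under quantile normalization, the normalization the study names, the log2 fold change was 8.53, and with library size alone it was 10.09.

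**Figure D1:**
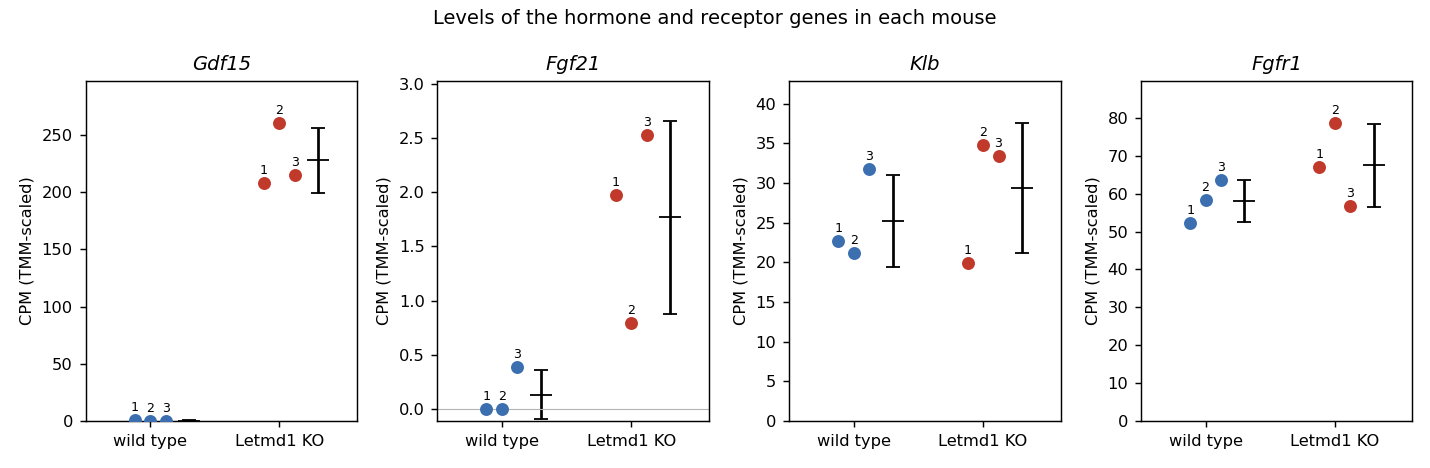
Levels of Gdf15, Fgf21, Klb and Fgfr1 in TMM-scaled CPM (y axis) for each wild-type (blue) and Letmd1 KO (red) mouse, numbered by replicate, with the mean and SD of each genotype in black. The KO mice lie between 208 and 261 CPM for Gdf15 and between 0.794 and 2.53 CPM for Fgf21, above every wild-type mouse, while Klb and Fgfr1 overlap between the genotypes.

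Fgf21 stayed a rare transcript in both genotypes. Wild-type BAT held 0, 0 and 3 Fgf21 counts, and Letmd1 KO BAT held 18, 6 and 43. In CPM, wild-type BAT was at 0, 0 and 0.391, and Letmd1 KO BAT at 1.98, 0.794 and 2.53. All 3 KO mice were above all 3 wild-type mice, yet the KO mice differed by 3.18 times among themselves, with KO replicate 2 lowest. This pattern is common among the genes tested, which do not include Fgf21: all 3 KO mice were above all 3 wild-type mice for 30.1% of them and below for 27.2%. The share among genes as rare as Fgf21 was not counted. Fgf21 failed the filter because KO replicate 2, at 0.900 CPM of its unscaled library, was under the cutoff of 1.02 CPM that 3 mice had to reach.

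The summed Fgf21 counts, 3 against 67, gave a ratio of 17.5 after scaling, with a counting interval of 95% from 5.74 to 87.0. The size of this ratio rests on few counts. It was 11.3 without wild-type replicate 1 and 11.1 without wild-type replicate 2. Without wild-type replicate 3, the only wild-type mouse with counts, Fgf21 was at least 12.3-fold higher against the floor of 3 counts over the group. With no filter, the fitted log2 fold change was 3.82 (standard error 0.98). Among all rows, its level was at percentile 35.6 in wild-type and 47.6 in Letmd1 KO BAT.

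**Figure D2:**
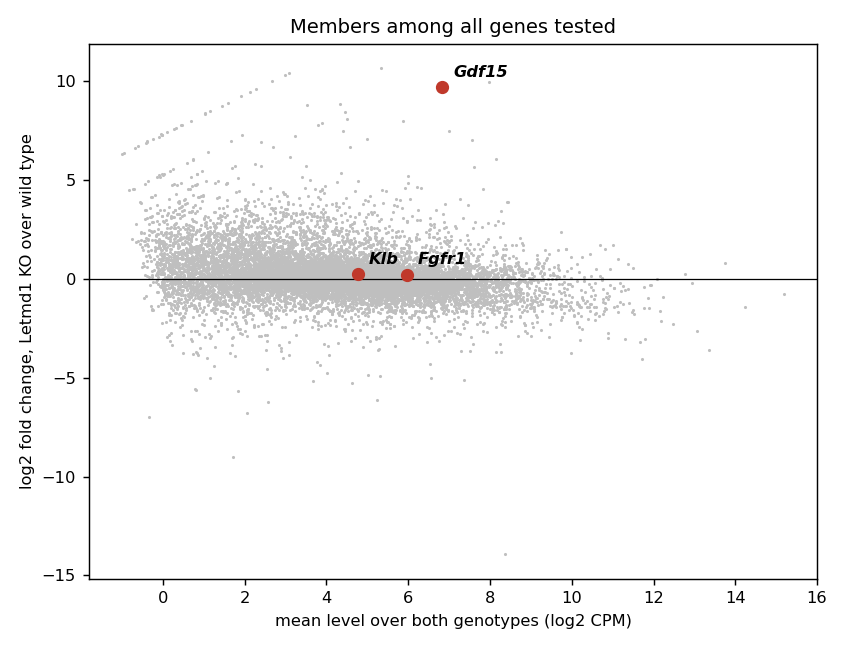
Log2 fold change of Letmd1 KO over wild-type BAT (y axis) against the mean level over both genotypes in log2 CPM (x axis) for the 12995 genes tested (grey), with Gdf15, Klb and Fgfr1 in red. Gdf15 stands at 9.68, near the top of the plot, and Klb and Fgfr1 lie near 0, both at 0.22. Fgf21 is not shown because it did not pass the filter on low counts.

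Marker genes of other cell types also differed between the genotypes. Summed macrophage markers were at 261, 199 and 268 CPM in wild-type BAT and at 1772, 3664 and 1536 CPM in Letmd1 KO BAT. All 13 of 13 were called higher, led in mean counts by Lgals3 and C1qb. Gpnmb was uneven among the KO mice, at 63.1, 1014 and 41.0 CPM, and was the largest single part of the sum in KO replicate 2. Summed fibroblast and progenitor markers, led by Col3a1 and Col1a1, were at 1481 ± 242 and 4416 ± 1239 CPM (SD, n = 3 each), with 8 of 8 called higher. Summed endothelial markers, led by Kdr and Pecam1, were at 516 ± 60.3 and 373 ± 49.7 CPM, with 3 of 8 called lower and 1 higher. These counts stand against 23.7% of all genes tested called higher and 22.3% called lower by edgeR's quasi-likelihood test. The KO mouse with the most macrophage marker RNA, replicate 2, also had the highest Gdf15 level and the lowest Fgf21 level. Per 1000 CPM of summed macrophage markers, Gdf15 was at 1.65, 0.533 and 0.973 CPM in the wild-type mice. In the KO mice it was at 118, 71.2 and 140 CPM. Gdf15 rose by far more than the marker sum, so this ratio was bound to separate the genotypes and says nothing of the source of Gdf15. The share of all genes that would also separate on this scale was not counted. The part of these cell types in the Gdf15 and Fgf21 levels was not tested.

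Skeletal muscle, which can make FGF21, differed among the mice. Its 15 summed markers, led by Acta1 and Myl1, were at 86.3, 526 and 98.0 CPM in wild-type BAT and at 485, 375 and 1378 CPM in Letmd1 KO BAT. Of the 14 tested, 3 were called higher, beside 23.7% of all genes tested. Fgf21 was highest in KO replicate 3, the mouse with the most muscle RNA. Wild-type replicate 2 held more muscle marker RNA than KO replicates 1 and 2 and had no Fgf21 count, which allows up to 0.318 CPM. Per 1000 CPM of summed muscle markers, Fgf21 was at 0, 0 and 3.99 CPM in wild-type and at 4.08, 2.12 and 1.84 CPM in Letmd1 KO BAT. On this scale wild-type replicate 3 was above KO replicates 2 and 3 and the groups overlapped. That value rests on 3 Fgf21 counts and on a sum of 98.0 CPM, of which Myl1 made up 91.3 CPM and Acta1 0.391 CPM. Myl1 itself was not called (log2 fold change -0.04), so this ratio is a weak measure of Fgf21 per muscle RNA. Without the mouse of each genotype with the most muscle RNA, the ratio of Fgf21 was 8.07. The part of muscle in the Fgf21 level was not tested. By Alb and Fgb, liver RNA was close to absent: the defining hepatocyte marker Alb had between 3 and 10 counts in every mouse and Fgb at most 3. Cyp2e1, on the same list, had between 168 and 675 counts and was highest in KO replicate 2, at 89.3 CPM. Summed hepatocyte markers were at 29.9, 28.7 and 29.9 CPM in wild-type and at 20.4, 91.4 and 19.8 CPM in Letmd1 KO BAT. Neither tested hepatocyte marker (Cyp2e1 and Alb) was called.

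**Figure D3:**
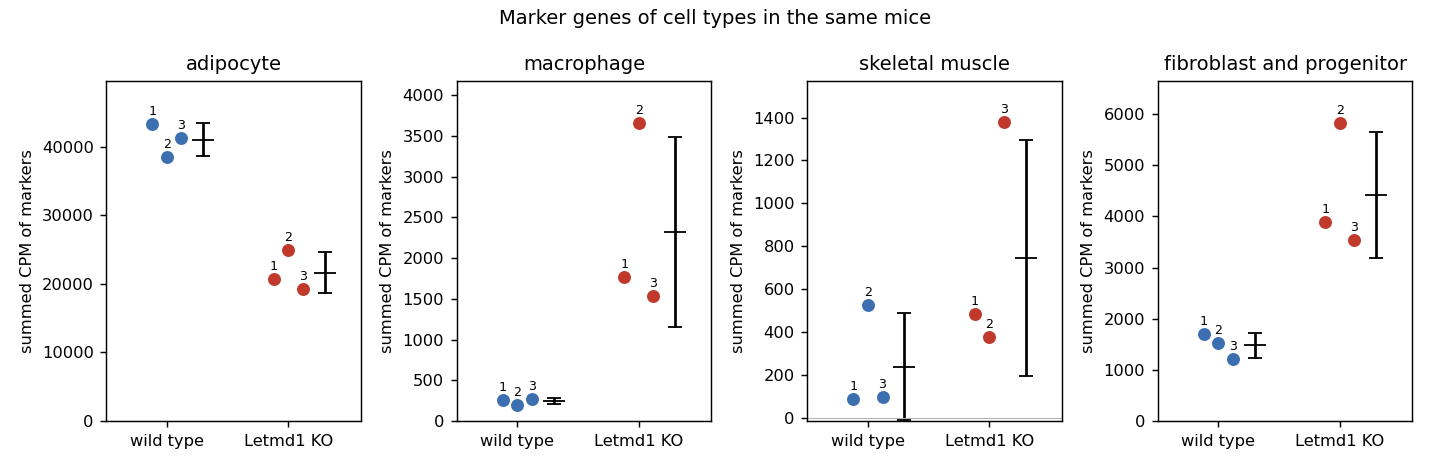
Summed CPM of adipocyte, macrophage, skeletal muscle, and fibroblast and progenitor markers (y axes) for each wild-type (blue) and Letmd1 KO (red) mouse, numbered by replicate, with the mean and SD in black. Macrophage markers reach from 199 to 268 CPM in wild-type and from 1536 to 3664 CPM in Letmd1 KO BAT, and wild-type replicate 2 and KO replicate 3 hold the most muscle RNA of their genotype.

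Klb, the co-receptor that makes fat a target of FGF21, had 210, 200 and 244 counts in wild-type and 181, 263 and 568 counts in Letmd1 KO mice. These correspond to 22.6, 21.2 and 31.8 CPM and to 19.9, 34.8 and 33.4 CPM. The groups overlapped, and both the lowest and the highest value belonged to KO mice. The means were 25.2 ± 5.76 and 29.4 ± 8.24 CPM (SD, n = 3 each), a log2 fold change of 0.22 (standard error 0.24) with an interval of 95% from -0.31 to 0.76.

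Fgfr1, the receptor kinase that pairs with beta-klotho in fat, had 486, 550 and 487 counts in wild-type and 610, 595 and 966 counts in Letmd1 KO mice. Its levels were 52.4, 58.3 and 63.5 CPM and 67.0, 78.7 and 56.8 CPM. KO replicates 1 and 2 were above every wild-type mouse and KO replicate 3 was within the wild-type range. The log2 fold change was 0.22 (standard error 0.14) with an interval of 95% from -0.11 to 0.54. Of all genes tested, 74.5% had a larger absolute log2 fold change than Klb and 75.6% a larger one than Fgfr1. With library size alone, the log2 fold changes were 0.65 for Klb and 0.63 for Fgfr1, on a scale where the median of all genes was 0.45.

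Set against each other, Klb had 432, 364 and 501 counts per 1000 Fgfr1 counts in wild-type BAT and 297, 442 and 588 in Letmd1 KO BAT, a ratio that does not depend on library scaling. The KO ratios enclosed the wild-type ones. Adipocyte markers were lower in Letmd1 KO BAT (5 of 8 called lower and 1, Retn, higher, beside 22.3% and 23.7% of all genes tested). Their sum fell from a mean of 41074 to 21611 CPM, so a gene of equal CPM in both genotypes would be higher relative to it. Fabp4 was the largest part of the sum, at means of 28020 and 10462 CPM, while Lpl, on the same list, was not called (log2 fold change 0.26). Per 1000 CPM of summed adipocyte markers, Klb was at 0.614 ± 0.135 CPM in wild-type and 1.37 ± 0.389 CPM in Letmd1 KO BAT (SD, n = 3 each). For Fgfr1 the same quantity was 1.42 ± 0.183 and 3.12 ± 0.147 CPM, and for neither gene did the groups overlap on this scale. The share of all genes that would also separate on this scale was not counted. The share of the receptor RNA that comes from adipocytes was not tested.

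The wider pathway was taken as 100 further genes, with Gdf15, Fgf21, Klb and Fgfr1 left out, and 69 of them passed the filter. By edgeR's quasi-likelihood test 25 of these were called higher (36.2%) and 18 lower (26.1%), beside 23.7% and 22.3% of all genes tested, and their median log2 fold change was 0.08. Without the mouse of each genotype with the most muscle RNA, 16 were called higher and 11 lower, and 12 of the 39 calls on genes named below were lost (Fgf11, Gfra2, Gfra3, Pcsk5, Pcsk7, Dpp4, Shc1, Sos2, Plcg1, Nras, Ccl11 and Gdf9). The lists were drawn up with earlier results of these data known, so these shares are a description. Scaling by library size alone moved the calls over all genes from 3082 higher and 2896 lower to 5899 and 1368, and calls that it ends are named below.

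Beside Klb and Fgfr1, 5 FGF receptors and klotho co-receptors were listed, and 3 of them passed the filter (Fgfrl1, Fgfr2 and Fgfr3). None of these 3 was called in either direction, and their median log2 fold change was 0.08. Fgfrl1, a receptor-like protein without a kinase domain, was at 143 ± 22.2 and 155 ± 31.1 CPM (SD, n = 3 each), which is 0.12 on the log2 scale (standard error 0.17). Fgfr2 and Fgfr3 were rare, with log2 fold changes of 0.08 and -0.22 and standard errors of 0.33 and 0.52. Fgfr4, the main liver receptor, had 1 count in all 6 mice, and Kl, the co-receptor of FGF23, had 5. With library size alone Fgfrl1 was called higher, and the median of the 3 was 0.49 beside 0.45 for all genes.

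**Figure D4:**
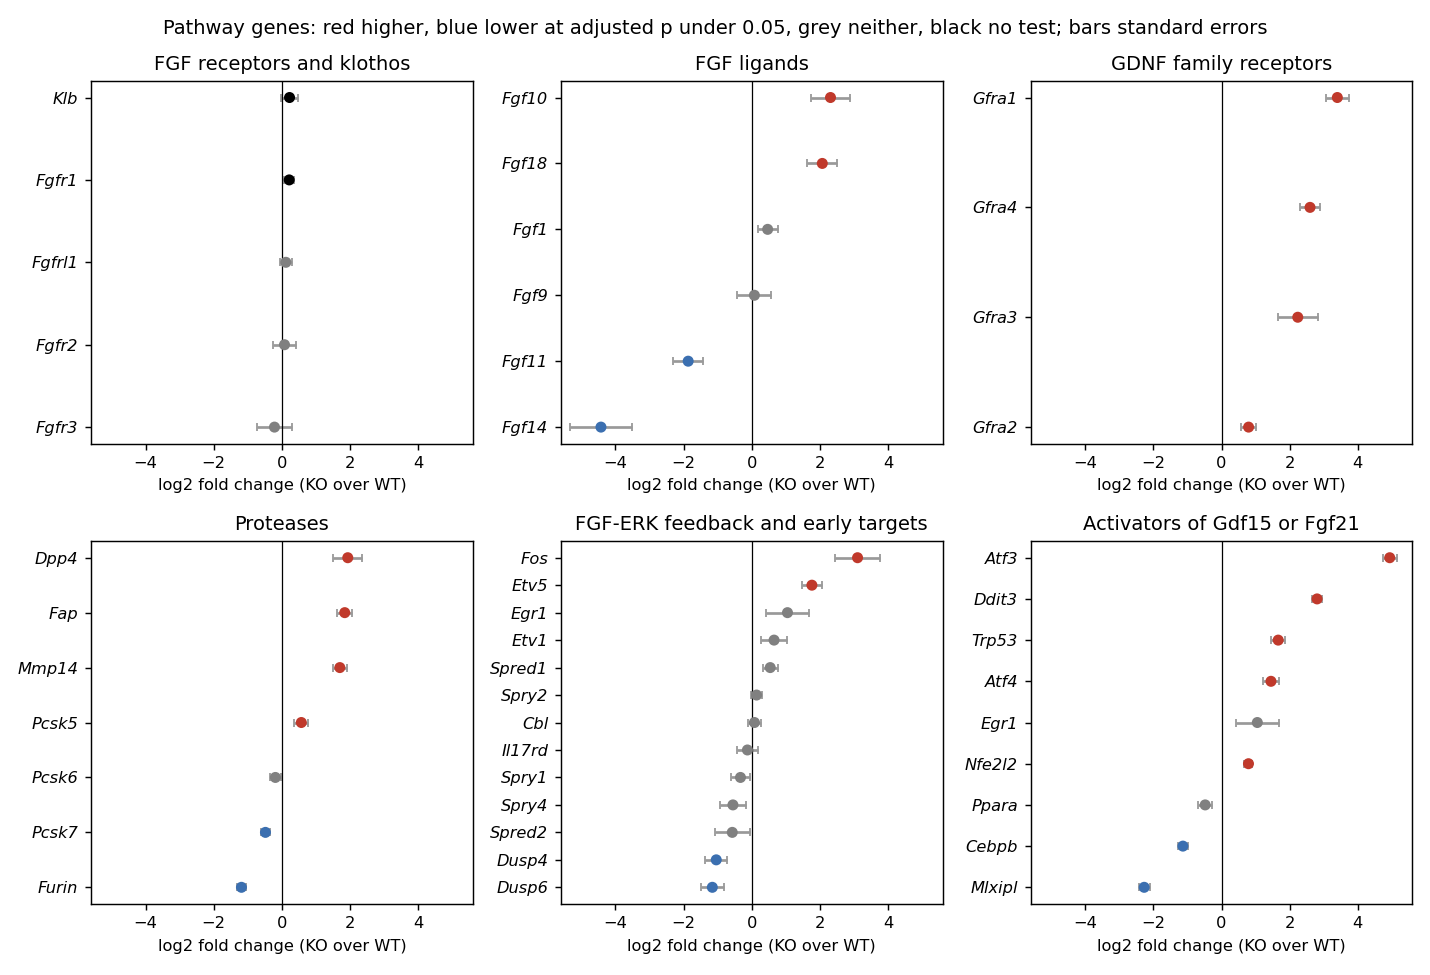
Log2 fold change of Letmd1 KO over wild-type BAT (x axes) with standard errors for the tested genes of 6 lists around the hormones, coloured by call (red higher, blue lower, grey neither, black for Klb and Fgfr1, given with no test). FGF receptors and klothos lie near 0, while GDNF family receptors lie between 0.79 and 3.40 and activators of Gdf15 or Fgf21 between -2.27 and 4.93.

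The FGF ligands, 22 genes with Fgf21 among them, included 8 without a count in any mouse, and 6 passed the filter. Of these, 2 rose and 2 fell, beside 23.7% and 22.3% of all genes tested. Fgf10, a ligand of fat progenitors and mesenchyme, rose from 31, 10 and 21 counts to 88, 161 and 87 (log2 fold change 2.31, adjusted p = 0.00892 by edgeR). Fgf18 rose by a log2 fold change of 2.07. Fgf14 and Fgf11, both intracellular FGF homologues that are not secreted, fell by 4.42 and 1.86 on the log2 scale. Fgf14 had 39, 37 and 40 wild-type counts and 0, 6 and 0 KO counts, so its size rests on KO replicate 2, without which it was at least 38.3-fold lower, and it was -3.54 without KO replicate 3. Without KO replicate 2, Fgf10 was at 1.62. Fgf1 and Fgf9 had log2 fold changes of 0.47 and 0.08, and Fgf1 gained a call with library size alone.

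For GDF15, the known receptor was not detected: Gfral had 0 counts in all 6 mice. Its partner Ret had 2, 1 and 2 wild-type counts and 10, 8 and 9 KO counts and did not pass the filter. The 4 other receptors of this family, which bind GDNF-type ligands and not GDF15, were all called higher, beside 23.7% of all genes tested. Gfra1, the GDNF receptor, rose from 2.78 ± 1.69 to 28.6 ± 3.74 CPM (SD, n = 3 each, log2 fold change 3.40, adjusted p = 6.04e-05 by edgeR), and Gfra4 rose by a log2 fold change of 2.60. The calls of Gfra3 (2.24) and Gfra2 (0.79) were each lost under quantile normalization. Leaving out KO replicate 1 ended the call of Gfra3 (without wild-type replicate 1 its value was 2.91), and leaving out wild-type replicate 2 or KO replicate 3 ended that of Gfra2.

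Among the 7 proteases that process or inactivate these proteins, 4 were higher and 2 lower, beside 23.7% and 22.3% of all genes tested. Furin, a proprotein convertase that can cleave pro-GDF15, fell from 139 ± 11.4 to 61.1 ± 9.96 CPM (SD, n = 3 each, log2 fold change -1.19, adjusted p = 0.000135 by edgeR). Fap, the protease that inactivates FGF21 by cutting its end, rose by a log2 fold change of 1.84 and is also a gene of activated fibroblasts. Mmp14, a membrane metalloproteinase that sheds GFRAL, rose by 1.70, and Dpp4, a dipeptidyl peptidase that also marks progenitors, by 1.93. Pcsk6 had a log2 fold change of -0.19 and did not pass the test. The smaller changes of Pcsk5 (0.57) and Pcsk7 (-0.48) were not stable: that of Pcsk5 was lost on leaving out any mouse but wild-type replicate 2, and that of Pcsk7 without wild-type replicate 1, without KO replicate 3 or with library size alone.

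Downstream of FGFR1, the relay to ERK changed little in size. Of its 19 genes 4 were higher, 6 lower and 9 not called, beside 23.7% of all genes tested higher and 22.3% lower. Their median log2 fold change was -0.15, and with library size alone 8 were higher and none lower. Leaving out single mice gave 2 or 3 higher and between 2 and 5 lower, and without the mouse of each genotype with the most muscle RNA 1 was higher and 1 lower. Grb2 and Nras, an adaptor and a RAS protein, rose by 0.64 and 0.48 on the log2 scale. Map2k2, the ERK kinase MEK2, fell by 0.54, a call lost with library size alone. Plcg1 (-0.87), Sos2 (-0.55) and Shc1 (0.36) each lost their call when any of 3 or more single mice was left out. Of single mice, only wild-type replicate 1 could be left out with the call of Plcg1 kept, and only wild-type replicate 3 with that of Shc1. Those of Plcg1 and Sos2 were also lost with library size alone, and that of Sos2 without wild-type replicate 1, wild-type replicate 2 or KO replicate 1.

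Of 13 tested feedback inhibitors and early targets, which FGF-ERK signalling is known to induce, 2 rose, 2 fell and 9 did not pass the test. Both shares were below the 23.7% of all genes tested called higher and the 22.3% called lower. Dusp6, the ERK phosphatase, had 2057, 734 and 1212 wild-type and 617, 384 and 1461 KO counts, and overlapped between the genotypes after scaling. Its log2 fold change was -1.16 (standard error 0.33, adjusted p = 0.0185 by edgeR), lost under quantile normalization and without wild-type replicate 1, KO replicate 1 or KO replicate 2. Dusp4, a related phosphatase, fell by 1.04, a call that leaving out wild-type replicate 1 or 3 or KO replicate 1 or 3 ended. Both calls were lost with library size alone. Etv5, an ETS factor induced by FGF, rose by a log2 fold change of 1.77, and Fos, an early response gene, by 3.10, or 3.70 without wild-type replicate 3 and 2.44 without KO replicate 2. Spred2, an inhibitor of RAF activation, had a log2 fold change of -0.57 that did not pass the test, but was called lower under quantile normalization at -1.45. Egr1 was spread widely, from 25 to 577 counts, with a log2 fold change of 1.05 that did not pass the test but did without wild-type replicate 3, at 1.83. Without KO replicate 3 it was at 0.19.

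The 6 adipose genes known to respond to FGF21 also split. Slc2a1, the glucose transporter GLUT1, rose from 7.59 ± 2.84 to 19.9 ± 4.65 CPM (SD, n = 3 each, log2 fold change 1.39, adjusted p = 0.00366 by edgeR). Ccl11, the chemokine eotaxin, rose by a log2 fold change of 0.80, a call lost without wild-type replicate 2, wild-type replicate 3 or KO replicate 2. Ucp1, the uncoupling protein, fell by 4.05 on the log2 scale. Dio2, the deiodinase that activates thyroid hormone, had a log2 fold change of -2.46 and Adipoq, which encodes adiponectin, one of -1.41, the latter call being lost under quantile normalization. Without wild-type replicate 1 Dio2 was at -1.78, and without KO replicate 2 Adipoq was at -2.02. Ppargc1a, a coactivator of mitochondrial genes, had a log2 fold change of -0.52 and was not called.

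Of 9 transcription factors known to activate Gdf15 or Fgf21, 5 rose and 2 fell, beside 23.7% and 22.3% of all genes tested. This list too was drawn up with earlier results known. Atf3 was at 1.74 ± 0.531 CPM in wild-type and 52.8 ± 3.09 CPM in Letmd1 KO BAT (SD, n = 3 each), a log2 fold change of 4.93 (adjusted p = 1.27e-06 by edgeR). Ddit3, which encodes CHOP, rose from 80.3 ± 8.40 to 560 ± 102 CPM (SD, n = 3 each, log2 fold change 2.80). Atf4 rose by a log2 fold change of 1.45, Trp53, which encodes p53, by 1.66 and Nfe2l2, which encodes NRF2, by 0.79. Mlxipl, which encodes the carbohydrate-sensing factor ChREBP, fell by 2.27 on the log2 scale and Cebpb by 1.13. Ppara, which activates Fgf21 in fasting liver, had a log2 fold change of -0.48 and was not called, although its KO levels were all under the wild-type ones.

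Beside Gdf15, 10 GDF ligands were listed and 3 passed the filter. Of these 3, 2 were called higher and 1 lower, against 23.7% and 22.3% of all genes tested. Gdf10 rose from 120, 129 and 49 counts to 194, 199 and 339 (log2 fold change 1.02), and Gdf5, a bone and joint morphogen, fell by 2.64 on the log2 scale from 4.45 ± 3.39 CPM (-1.84 without wild-type replicate 3). Gdf9 was called higher at a log2 fold change of 2.40, but the call was lost without any of 4 single mice (wild-type replicate 2 or 3, KO replicate 1 or 3), and the value was 4.41 without wild-type replicate 1. Mstn, which encodes myostatin, had 3 counts in all, in KO replicate 3.

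The genes whose profile over the 6 mice was nearest to each of the 4 genes were found by the root mean square difference of log2 CPM, each gene centred on its own mean, among tested genes (11922 for Gdf15, Klb and Fgfr1) with a mean of at least 20 counts. For Gdf15 these were Tenm2 (difference 0.490), Mmp12 (0.735), Plscr2 (0.851), Slit1 (1.08) and Akr1b7 (1.11). Like Gdf15 they were almost silent in wild-type BAT. Tenm2, a synaptic adhesion protein, was at 0.511 ± 0.286 CPM in wild-type and 499 ± 130 CPM in Letmd1 KO BAT, and Mmp12, the macrophage metalloelastase, at 0.0353 ± 0.0612 and 81.2 ± 53.2 CPM (SD, n = 3 each). For Fgf21 they were Apitd1 (0.315), Gm11665 (0.356), Cx3cr1 (0.382), Slamf9 (0.383) and Traf1 (0.403). The log2 CPM used here include a prior count of 2, which shrinks the step of a gene with few or no wild-type counts. For Fgf21, and in part for Gdf15, the nearest genes therefore depend on that prior count. Other prior counts were not tried for these profiles. Cx3cr1, the fractalkine receptor of macrophages, was at 3.19 ± 1.76 and 17.1 ± 3.43 CPM (SD, n = 3 each).

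**Figure D5:**
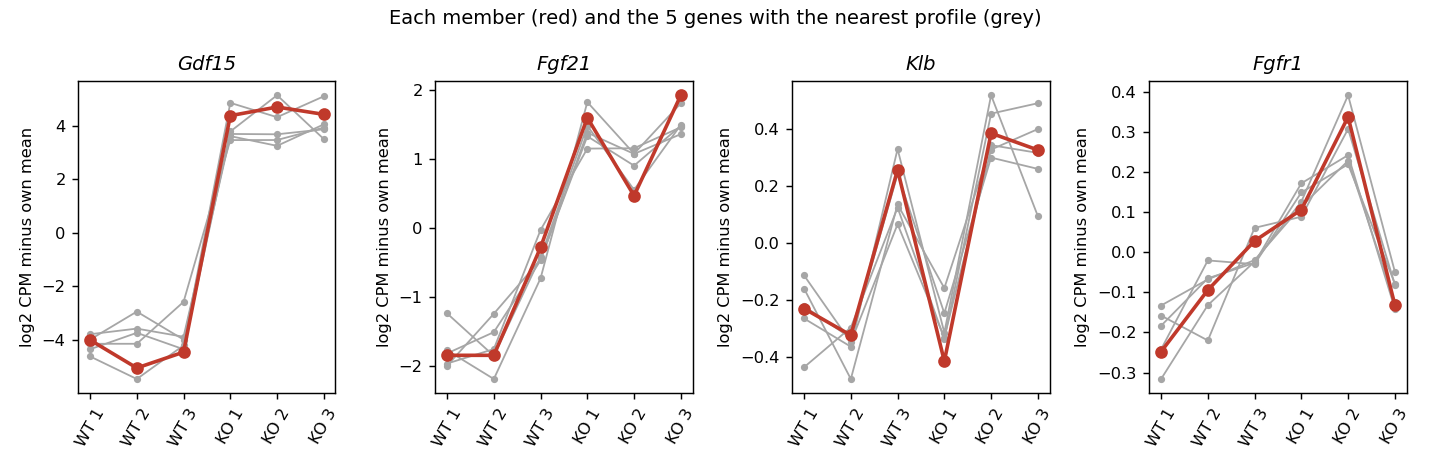
Log2 CPM minus the gene's own mean (y axes) in each of the 6 mice (x axes) for Gdf15, Fgf21, Klb and Fgfr1 (red) and for the 5 genes nearest to each (grey). Gdf15 and its neighbours form a step between the genotypes, whereas Klb and Fgfr1 vary by less than 1 unit of log2 over all mice.

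For the receptor genes many profiles were close. Within a difference of 0.25 there were 213 genes for Klb and 2372 for Fgfr1, and none for either hormone gene. The nearest to Klb were Ugdh (0.0822), Eaf1 (0.105), Bcl7c (0.122), Cirbp (0.128) and Fchsd2 (0.136). The nearest to Fgfr1 were Zfp120 (0.0563), Ercc1 (0.0600), Uba2 (0.0677), Dgcr14 (0.0688) and Dstn (0.0693). These likenesses rest on 6 mice of 2 genotypes that share their libraries, and a flat profile is near many others.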

How the data were processed

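RNA of BAT from 3 wild-type and 3 Letmd1 KO male mice was sequenced as QuantSeq 3′ libraries with single-end reads of 75 bases, which mark transcript ends, so counts do not scale with transcript length. The authors aligned reads with Bowtie2, counted unique and multiple alignments with bedtools (both also in the submitters' processing notes, which name mm10) and deposited raw counts without normalization, so genes with near-identical copies may share reads. The annotation and use of strand are not given in the sources used here.

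Counts were scaled by TMM and tested with edgeR 4.0.16 in R 4.3.3 (quasi-likelihood test, default filter with a minimum count of 10 and total of 15, Benjamini-Hochberg adjustment, threshold 0.05). Samples were grouped by labelled genotype. The labels do not say more of the replicates than that they are separate samples, so p-values measure the spread among them. No pair of mice of 1 genotype agreed within counting noise (chi-square over degrees of freedom from 11.5 to 34.0). Intervals of count ratios are exact and cover counting error only. Standard errors and intervals of edgeR log2 fold changes were worked back from the F statistic of the test, and can be too small where a genotype has few counts. The steps were tested on simulated data.

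The 4 genes and all lists were chosen with earlier results of these data known. Named genes are the 4, every measured gene of the receptor and protease lists, and the 3 lowest and 3 highest tested genes of other pathway lists. To these come the 2 of each marker list with the highest mean counts and the 5 nearest profiles. Atf4, Nfe2l2, Fgb, Mstn, Retn, Gpnmb and Gm16159 were added after their values were seen. Alternatives were library size alone, DESeq2 size factors, quantile normalization with limma 3.58.1, no filter, a mean of at least 50 counts, DESeq2 1.42.0, a replicate block, a prior count of 2, a threshold of 0.01, each mouse left out, and both mice richest in muscle RNA left out.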

Additional observations from a re-analysis of the deposited data

How the results depend on the processing

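With scaling by library size alone, 5899 genes were called higher and 1368 lower, against 3082 and 2896 with TMM, 9 pathway genes were called lower in place of 18, and the log2 fold change was 10.09 for Gdf15, 0.65 for Klb and 0.63 for Fgfr1. Without the mouse of each genotype with the most muscle RNA (wild-type replicate 2 and KO replicate 3), 1977 genes were called higher and 1912 lower, 16 pathway genes higher and 11 lower, the log2 ratio of Fgf21 was 3.01, in place of 4.13, and Klb was at -0.0097. At a threshold of 0.01, 1985 genes were higher. Gdf15 was at 8.53 under quantile normalization and at 8.94 with a prior count of 2. Leaving out each mouse in turn gave between 2494 and 2999 genes higher and between 2348 and 2869 lower, and between 20 and 23 pathway genes higher and 12 and 16 lower. Over the same fits, Gdf15 lay between 9.27 and 10.24, Klb between 0.094 and 0.44 and Fgfr1 between 0.091 and 0.33. For Fgf21 the log2 ratio of summed counts, which is not a fitted value, was taken with the same mice left out. It lay between 3.47 and 4.36 where wild-type counts remained. Without wild-type replicate 3 none remained, and the ratio was at least 3.62 with no upper limit. Of 39 named pathway genes called, 23 kept their call under each alternative on scaling, filter, tool, block and mice that gave them a value (Fgf14, Fgf18, Fos and Gdf5 had none at a mean of at least 50 counts), and 11 lost it when a single mouse was left out. Fgf21 had no value under quantile normalization, DESeq2, the filter at a mean of 50 counts, the block or the prior count, because it did not pass those filters.

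Mice with the same replicate number did not deviate together (correlations 0.069, -0.111 and -0.087), and with the replicate number as a block 2886 genes were higher and 2713 lower, 25 pathway genes higher and 18 lower, and Gdf15 was at 9.68. Not every mouse correlated best with its own number. Under the block, Egr1 (1.04), Ppargc1a and Ppara gained a call and Shc1 and Plcg1 lost theirs. Fgf21 had at most 3 counts in a wild-type mouse, so the size of its ratio has a wide counting interval.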
